A study of Mus musculus with 24 samples.

Results

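The 36 genes described here are those of the skeletal muscle contractile apparatus and its calcium and energy supply, out of 18535 genes named on the arrays. They were taken as a list of names, chosen with earlier results of these data known. Measured values enter the rule itself only in the choice of a gene's probe. Of the 36 genes, 10 are of the thick filament, 9 of the thin filament and its troponins, 6 of the Z-disc and titin, 6 of calcium handling and 5 of energy supply and oxygen storage. By fibre type, 14 are known mainly from fast fibres, 7 from slow fibres and heart, and 15 from both or neither. Their levels were read from 62 array probes, and a gene with several probes is given on its brightest probe, over the arrays of a tissue or, where tissues are compared, over all arrays.

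The samples were not muscle fibres. They were live cells positive for CD105 (endoglin) and negative for the leukocyte antigen CD45, sorted as endothelial cells from collagenase digests of the aorta or of leg skeletal muscle (plantaris, gastrocnemius and biceps femoris) of male mice, pooled within each group, with their RNA amplified before labelling. Mice were wild-type C57BL/6 (WT) or homozygous for a targeted deletion in the galectin-3 gene, Lgals3tm1Poi (KO), a germline deletion carried by every cell, and ate a high-fat diet (HFD, 60% of calories from fat) or chow (12%) for 8 weeks from 8 weeks of age. The 8 groups of tissue, strain and diet have 3 arrays each, 1 from each of 3 experiments, so that 24 single-colour Agilent arrays were read. Levels are log2 signals relative to the 75th percentile of their array, so that 0 is the 75th percentile, and a probe's level is compared only with its own level on other arrays.

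In a muscle fibre, myosin heads of the thick filament pull on actin in the thin filament. Calcium released from the sarcoplasmic reticulum through the ryanodine receptor starts the contraction by binding troponin C, and the SERCA pumps take the calcium back up. Fast and slow fibres make different versions of myosin, troponin and SERCA. Striated muscle is the known site of these genes, and endothelial cells are not known to build sarcomeres.

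On every array the 12 endothelial markers of a list made from general knowledge were well above background, and the endoglin gene Eng lay between 2.68 and 4.14 in aorta and between 4.11 and 4.91 in muscle. The mean level of the endothelial list was 2.05 to 4.07 in aorta. Markers of other cells were present too. In aorta 10 of 10 fibroblast and 10 of 10 smooth muscle markers were well above background on every array. In muscle 9 of 10 of each were, so that presence of the endothelial markers does not measure the purity of the sort. Of 3 probes for Ptprc, the CD45 gene, 1 was well above background on 10 of 12 arrays in each tissue, and the others on 1 array or none. The probe for Lgals3 was well above background on all 24 arrays and was not lower in the arrays labelled KO: in aorta it lay between 0.90 and 3.20 in WT and between 2.40 and 4.53 in KO, and in muscle between 3.27 and 4.98 in WT and between 4.31 and 6.31 in KO. Where on the transcript this probe lies, inside or outside the deleted exons, is not given in the sources used here, so it does not check the strain labels, and every direction between strains below rests on those labels. The methods state that loss of galectin-3 in the KO mice was checked in DNA, RNA and protein. The 75th percentile of the processed signal ranged from 2390 to 5938, and 59.5 to 75.7% of the spots were well above background. Each of the 6 slides held the 4 arrays of 1 tissue and experiment, and experiment 1 was scanned in a session apart from experiments 2 and 3.

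Before the levels, the stretches of 150 bases ahead of the transcription start are shown for 3 members. They are Acta1, the actin of skeletal muscle, Myh4, the myosin heavy chain of the fastest fibres (IIB), and Myh7, the slow and cardiac myosin heavy chain (the second of its 2 starts). Sequences are from RefSeq on GRCm38.p6, at chr8:123894776-123894925 (minus strand), chr11:67237662-67237811 (plus strand) and chr14:54994550-54994699 (minus strand). Capitals mark matches to a CArG box, the element bound by serum response factor, to an E-box, the element bound by the MyoD family, and to the letters TATAAA of the TATA element.
Acta1: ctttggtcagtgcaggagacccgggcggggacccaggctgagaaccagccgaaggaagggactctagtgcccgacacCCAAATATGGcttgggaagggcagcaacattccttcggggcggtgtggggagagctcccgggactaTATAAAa
Myh4: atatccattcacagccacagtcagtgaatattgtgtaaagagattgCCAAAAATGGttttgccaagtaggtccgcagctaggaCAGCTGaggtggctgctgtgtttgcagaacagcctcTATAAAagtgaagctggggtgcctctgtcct
Myh7: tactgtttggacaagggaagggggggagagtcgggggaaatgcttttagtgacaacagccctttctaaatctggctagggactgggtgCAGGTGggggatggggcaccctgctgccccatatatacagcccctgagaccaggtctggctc
The first base of the CArG box lay 73 bases before the start in Acta1 and 104 bases before it in Myh4. Myh4 also held an E-box 67 bases and TATAAA 31 bases before the start, and Myh7 held an E-box 62 bases before it. In Acta1 the letters TATAAA began only 7 bases before the start given here. In the 250 bases before the start, searched on both strands, an E-box CANNTG was found in 88.2% of 34 promoters of 28 members, against 66.2% of all 32851 promoters in the table, and its form CAGCTG, a subset of the first, in 47.1% against 13.0%. The MEF2 site (bound by the MEF2 factors) was found in 11.8% against 2.92%, in Myh1, Myh4, Pvalb and Ttn. The CArG box was found in 8.82% against 1.47%, in Acta1, Myh4 and Myl3. The TATA element, searched as TATAAA, was found in 17.6% against 12.4%. In 11 promoters of fast genes and 9 of slow and heart genes, an E-box was found in 72.7% and 100%. CAGCTG was found in 45.5% and 33.3% of them, and the MEF2 site in 27.3% and 0%. The CArG box was found in 9.09% and 11.1%, and TATAAA in 27.3% and 22.2%. These are matches of letters, given as a description without a test. The members not in the promoter table were Tnnt3, Tnni2, Neb, Actn3, Myoz1, Myot, Tcap and Atp2a2.

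Muscle and aorta were compared first. Signal for these genes was present in both: on their brightest probes, 33 of the 36 members were well above background on all 12 muscle arrays and 15 on all 12 aorta arrays. Across both tissues 34 members passed the filter for testing, which asks for a probe well above background on all arrays of at least 1 group. The 2 that did not pass were Tnnc1, the slow and cardiac troponin C, and Casq1, the calcium-binding protein of the fast sarcoplasmic reticulum. Of the 34 tested, 33 were higher in muscle and 0 were lower (limma, adjusted p under 0.05 over all probes tested), where 30.1% of all probes tested were higher. The median difference was 4.41 on the log2 scale, against 0.27 for all probes. Of the 24 members that passed the filter in both tissues 23 were higher, and the other 10 passed in muscle only, so that their difference was set in part by the filter. These 10 were Myh1, Myh4, Mybpc1, Mybpc2, Neb, Actn2, Myot, Atp2a1, Ryr1 and Pvalb. Because the samples are pooled cells, more muscle RNA per cell and more cells that carry it cannot be told apart. Tissue was nested in slide, and with slide as a random block 33 members were still called higher, where 4574 of all 27387 probes were.

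**Figure D1:**
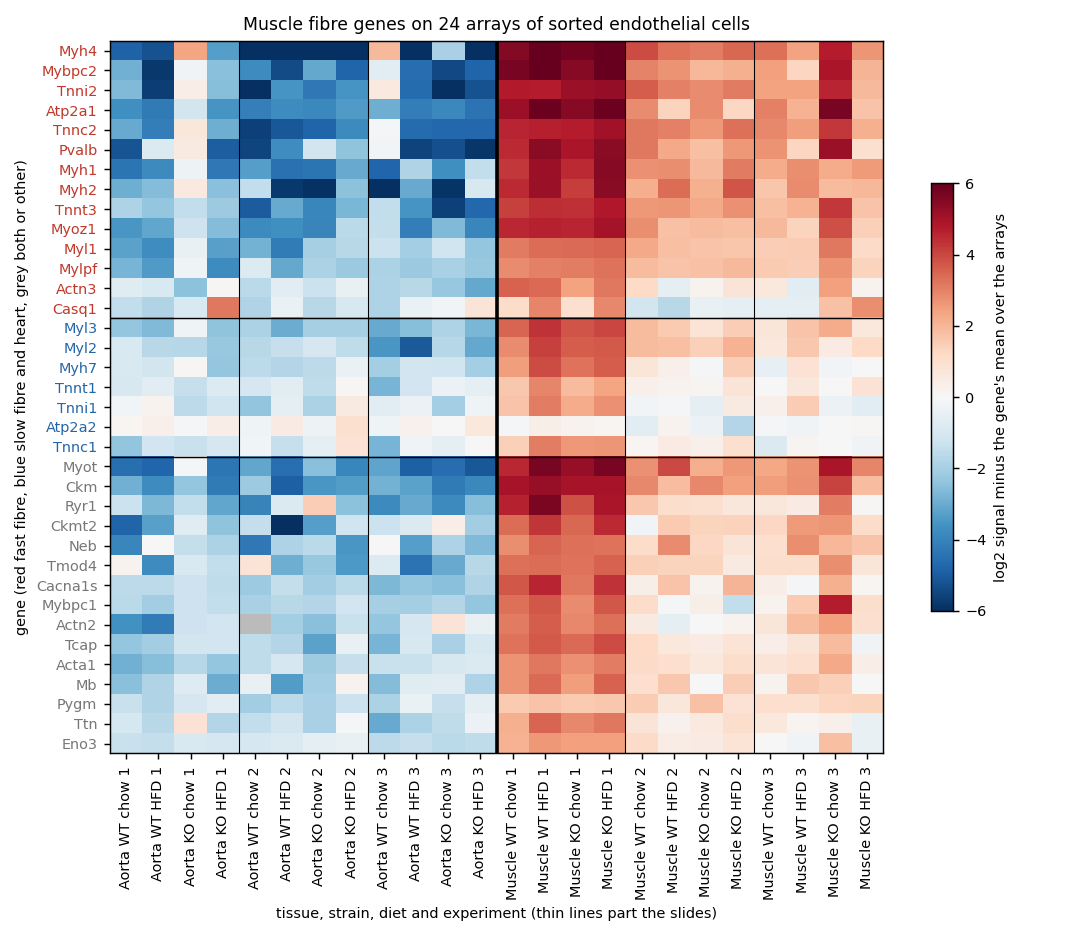
Levels of the 36 genes on the 24 arrays, as log2 signal minus each gene's mean over the arrays (colour), with arrays in columns by tissue, experiment, strain and diet and genes in rows by fibre type (red fast, blue slow and heart, grey both or other; the grey cell was not measured). The 12 muscle columns are higher than the 12 aorta columns for nearly all rows, and the 4 muscle arrays of experiment 1 are the highest for most.

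Every thick filament gene was higher in muscle, 10 of 10, with a median difference of 4.57. Myh4 lay between −8.91 and 0.49 on the aorta arrays (median −7.48) and between 0.54 and 4.27 on the muscle arrays (median 1.78). All 12 muscle arrays were thus above all 12 aorta arrays, by a narrow margin for the highest aorta array. The fitted difference was 8.35 ± 0.98 (SE; limma adjusted p = 1.61e-06). On this probe Myh4 was well above background on 4 of 12 aorta arrays, and with aorta values set no lower than the dimmest signal well above background on their array the difference was still at least 7.14. The other fast myosin genes differed by 6.62 (Myh1, the IIX heavy chain), 6.51 (Myh2, the IIA heavy chain), 7.33 (Mybpc2, fast myosin-binding protein C), 4.69 (Myl1, the fast essential light chain) and 4.44 (Mylpf, the fast regulatory light chain). Myh1, Myh2 and Mybpc2 were well above background on 3, 8 and 5 of 12 aorta arrays. With the same limit on aorta values they differed by at least 5.34, 5.81 and 6.47. The second probes of Myh4, Myh2 and Myh1 were also called higher, by 5.22, 5.87 and 0.62, so that for Myh1 the size depended on the probe. Among the slow genes, Myh7 lay between −6.13 and −3.76 in aorta (median −5.19) and between −4.32 and 0.08 in muscle (median −3.02), so that the tissues overlapped. Its difference was 2.65 ± 0.53 (limma adjusted p = 0.000491). Myl2, the slow and ventricular regulatory light chain, lay between −7.19 and −3.05 in aorta (median −3.82) and between −1.64 and 1.97 in muscle (median −0.29), without overlap and with a difference of 4.23 ± 0.50 (limma adjusted p = 1.88e-06). Myl3, the slow essential light chain, differed by 4.45 on its brightest probe, while its other probe differed by −0.05 and was not called. Mybpc1, slow myosin-binding protein C, was well above background on 0 of 12 aorta arrays and 9 of 12 muscle arrays, and was at least 2.47-fold higher in muscle (limma adjusted p = 6.75e-05). For a probe not well above background on any array of a tissue, such a lower bound is given in place of a fold.

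Thin filament genes were higher in 8 of 8 tested, with a median of 4.17. Acta1 lay between −1.30 and 0.71 in aorta (median 0.09) and between 1.98 and 4.73 in muscle (median 2.67). It was well above background on all 24 arrays and did not overlap, with a difference of 3.33 ± 0.39 (limma adjusted p = 1.38e-06). Tnni2, the fast inhibitory troponin, lay between −6.46 and 0.89 in aorta (median −3.62) and between 2.24 and 5.56 in muscle (median 3.68), with the largest difference of the thin filament, 7.31 ± 0.78 (limma adjusted p = 5.13e-07). The remaining fast troponins differed by 7.15 (Tnnc2, calcium-binding) and 6.30 (Tnnt3, tropomyosin-binding). The slow troponins differed by less. Tnnt1 lay between −3.84 and −0.99 in aorta (median −1.96) and between −1.08 and 1.85 in muscle (median −0.34), a difference of 1.97 ± 0.35 (limma adjusted p = 0.000157), and Tnni1 differed by 1.72. For Tnnt1 the lowest muscle array was just below the highest aorta array. Neb, the giant ruler of the thin filament, differed by 4.38, and Tmod4, which caps its pointed end, by 3.95. Neb and Tmod4 were well above background on 3 and 5 of 12 aorta arrays. With the same limit on aorta values as for Myh4, they differed by at least 3.79 and 3.32. Tnnc1, not tested, was well above background on 4 of 12 aorta arrays and 8 of 12 muscle arrays.

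All 6 Z-disc and titin genes were higher in muscle, with a median of 3.41. Myot (myotilin, which binds α-actinin) lay between −8.59 and −3.65 in aorta (median −7.93) and between −1.34 and 2.19 in muscle (median −0.07). It was well above background on 1 of 12 aorta arrays and on all 12 muscle arrays, and the fitted difference was 7.58 ± 0.53 (limma adjusted p = 2.84e-09). With the aorta values set no lower than the same limit it was at least 6.23. Myoz1, a calcineurin-binding protein of fast fibres, differed by 5.93, Actn2 and Actn3, the sarcomeric α-actinins, by 3.44 and 2.80, Tcap, which links titin ends, by 3.38, and Ttn, the molecular spring, by 2.51. The other tested probe for Ttn differed by 3.47. Actn2 was fitted without 1 aorta array, the WT chow array of experiment 2, whose spot was marked an outlier. Actn2 was well above background on 5 of 12 aorta arrays, and with the same limit it differed by at least 2.73.

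Calcium genes held the only tested member that was not higher in muscle. Atp2a1, the SERCA pump of fast fibres, was well above background on 0 of 12 aorta arrays, where its values lay between −8.94 and −5.58 (median −8.31), and on all 12 muscle arrays, between −3.24 and 1.40 (median −1.56). It was at least 37.4-fold higher in muscle (limma adjusted p = 2.54e-08). A second Atp2a1 probe, well above background on 7 aorta arrays and 9 muscle arrays, was also called higher, with a smaller difference of 1.43. Atp2a2, the SERCA pump of slow fibres and heart, whose housekeeping form is made in most cell types, lay between 1.67 and 2.93 in aorta (median 2.14) and between 0.22 and 2.33 in muscle (median 1.92). The ranges overlapped almost wholly, and the difference was −0.35 ± 0.18 (limma adjusted p = 0.123). Scaled as in the deposited table, which puts the median of all probes at 0.01 in place of 0.27, Atp2a2 was called lower in muscle, at −0.62 (limma adjusted p = 0.0123). Its 2 other probes differed by −0.08 and 0.34 and were not called. Pvalb, the calcium buffer of fast fibres, differed by 6.68. Ryr1, the calcium release channel, differed by 4.60 and Cacna1s, the voltage sensor coupled to it, by 3.76. Pvalb and Ryr1 were well above background on 5 and 3 of 12 aorta arrays. With the same limit on aorta values as for Myh4, they differed by at least 5.53 and 3.69. Casq1 was well above background on 2 of 12 aorta arrays and 6 of 12 muscle arrays.

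All 5 genes of energy supply and oxygen storage were higher in muscle, with a median of 3.25. Ckm, the muscle creatine kinase, lay between −7.44 and −4.75 in aorta (median −6.0) and between −0.72 and 2.67 in muscle (median 0.33). The lowest muscle array lay 4.03 above the highest aorta array, and the difference was 6.88 ± 0.44 (limma adjusted p = 9.55e-10). Ckmt2, the mitochondrial creatine kinase, differed by 4.53, Mb, myoglobin, by 3.25, Pygm, the muscle glycogen phosphorylase, by 2.65, and Eno3, the muscle enolase, by 2.27. Eno3 and Mb were well above background on all 12 aorta arrays.

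Sorted by fibre type, 13 of 13 fast genes tested were higher in muscle with a median of 6.62 (2.80 to 8.35), and 5 of 6 slow and heart genes with a median of 2.31 (−0.35 to 4.45). The difference between the fibre classes was not tested. Among members well above background on every array, 5 of 5 fast genes were higher with a median of 4.69 and 2 of 3 slow and heart genes with a median of 1.97. All 12 muscle arrays exceeded all 12 aorta arrays for 21 of the 33 members with a value on every array, where 2.1% of all probes tested did so. By class, this held for 12 of 13 fast genes, all but Actn3, and for 2 of 6 slow and heart genes, Myl2 and Myl3. Among the fast genes, Myh1, Myh4, Mybpc2, Atp2a1 and Pvalb passed the filter in muscle only. All 6 slow and heart genes passed in both tissues, so that the class counts and medians were set in part by the filter. The tissues were also compared within each strain and diet. In WT on chow 28 of 34 members were higher (7.88% of all probes tested), in WT on HFD 29 (8.37%), in KO on chow 23 (1.98%) and in KO on HFD 25 (8.2%). In KO on HFD, Atp2a2 was called lower in muscle, with a difference of −1.19 (limma adjusted p = 0.032). Without experiment 1, the count was 33 of 35 with a median of 3.50, where 5251 of all 28593 probes were higher (median 0.28).

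**Figure D2:**
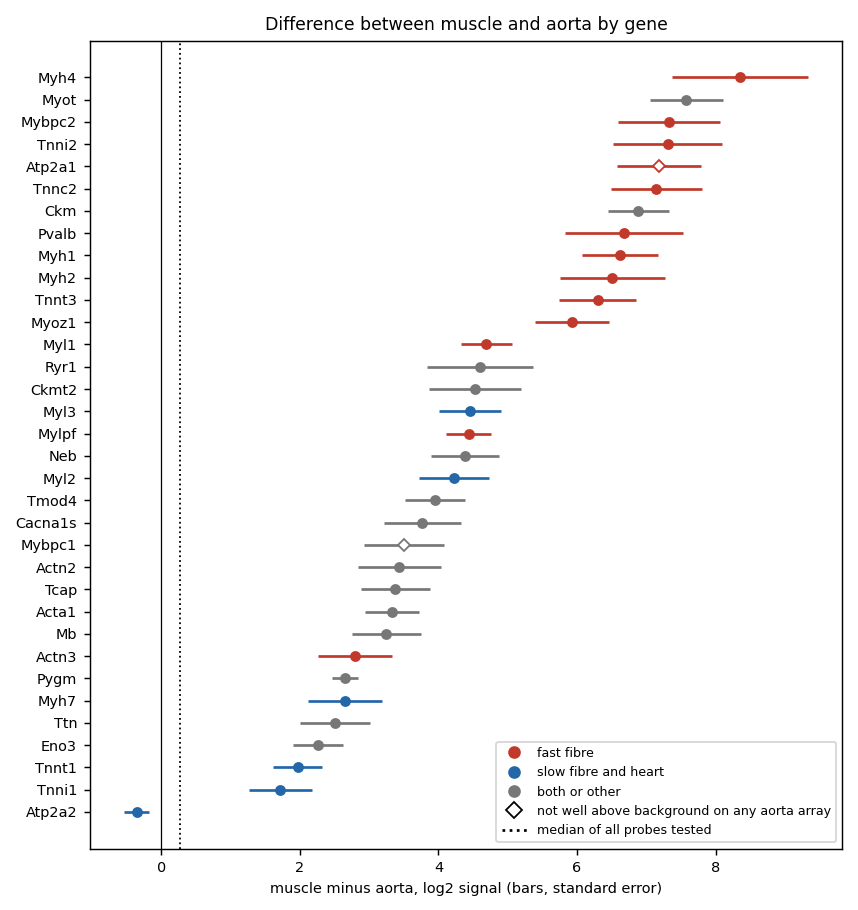
Difference between muscle and aorta in log2 signal for the 34 members tested, with bars for the standard error and colours for fibre type. Differences run from −0.35 for Atp2a2 to 8.35 for Myh4, and the dotted line is the median of all probes, 0.27.

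Other cell types also differed between the tissues, and their part in these differences was not tested. Endothelial markers were higher in muscle for 11 of 12 genes (median 1.06). Of a further list of muscle fibre genes, 26 of 45 tested were higher and 1 lower (median 1.40). Satellite cell and myoblast genes were higher for 7 of 11 and lower for 1 (median 2.19), and of those markers Myf5 was above background on no aorta array. Fibroblast markers were lower in muscle for 10 of 10 genes (median −4.16), and 5 of 10 heart muscle genes were lower and 1 higher (median −1.32).

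Within muscle, the members separated the arrays of experiment 1 from the rest. For 24 of the 34 members tested, all 4 arrays of experiment 1 were above all 8 arrays of experiments 2 and 3, where 3.19% of all probes did so. In the aorta this held for 0 of 26 members (1.14% of all probes). Myh4 was 3.61, 4.07, 3.92 and 4.27 in WT chow, WT HFD, KO chow and KO HFD of experiment 1, against 0.54 to 2.83 (median 1.39) on the other 8 arrays. Myh7 was between −1.30 and 0.08 in experiment 1 and between −4.32 and −2.32 on the others. Fast and slow genes alike were thus high on these arrays, 8 of 13 and 5 of 6. Ryr1 stood farthest apart, with a mean difference of 3.68, and Pygm least, with 0.43. Averaged over the 34 members, the experiment 1 arrays lay 1.19 to 1.76 above the mean of the 12 muscle arrays, and the other 8 lay between −1.22 and 0.39.

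The same arrays were high for other muscle fibre genes (23 of 43 with all 4 arrays on top) and for satellite cell genes (6 of 11, among them Pax7 and Myf5). They were high for 0 of 9 heart muscle genes, 0 of 12 endothelial genes and 1 of 10 fibroblast genes. The mean fibroblast level was nevertheless 0.49 to 2.14 above its average in experiment 1 and −1.47 to 0.69 elsewhere. Macrophage and leukocyte genes were 1.27 to 4.29 above and −3.93 to 1.74 elsewhere, and endothelial genes −0.24 to −0.06 and −0.01 to 0.20. The muscle arrays of experiment 1 had a slide of their own and shared their scan session with the aorta arrays of experiment 1, so that within muscle the experiment, the slide and the session cannot be told apart. Each slide held all 4 groups of its tissue, so that each HFD array has its chow partner on the same slide.

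**Figure D3:**
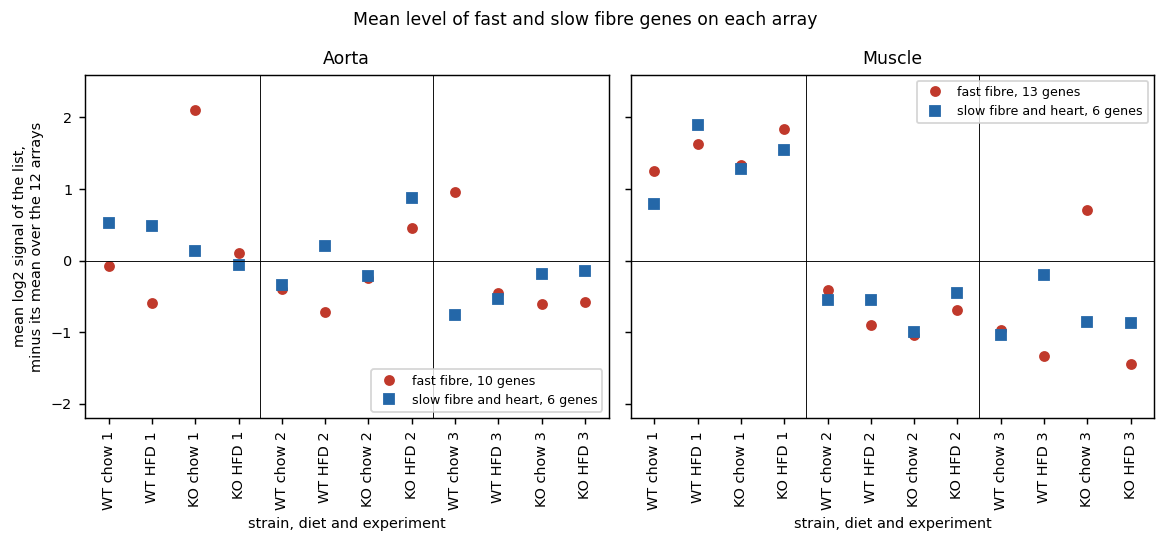
Mean log2 signal of the fast (circles) and the slow and heart genes (squares) on each array, minus its mean over the 12 arrays of the tissue; aorta left, muscle right, arrays named by strain, diet and experiment. In muscle the 4 arrays of experiment 1 lie at 0.79 to 1.89 for both lists, and KO chow of experiment 3 lies at 0.71 for fast and −0.86 for slow genes.

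A single muscle array, KO chow of experiment 3, departed from the other 7 arrays of experiments 2 and 3 in its fast genes and in the 15 members of neither class. The array was picked out after its values were seen, and nothing here is a test. It was the highest of the 8 for 23 of 34 members, where 7.68% of all probes had it highest: 11 of 13 fast genes and 1 of 6 slow and heart genes, the latter Myl3. Atp2a1 was 1.19 on this array and −3.24 to −1.46 on the other 7 (median −2.38). Pvalb was 2.14 against −2.07 to 0.16 (median −0.77), and Myh4 was 2.83 against 0.54 to 2.02 (median 1.36). Mybpc1, which is not restricted to slow fibres and was placed in neither class, was −1.88 against −8.05 to −4.97 (median −6.23). Of the 6 slow and heart genes, Myl3 was 2.24 against 0.63 to 1.92 and Atp2a2 1.95 against a median of 1.74, and the other 4 lay below the median of the other 7 arrays. Myl2 was −1.64 and the lowest of the 8 (others −1.50 to −0.08), Tnnt1 was −1.08 and also the lowest (others −1.05 to −0.18), and Myh7 was −3.98 within a range of −4.32 to −2.32. The fast genes that were not highest were Myh1, at −1.54 within −1.84 to −0.65, and Myh2, at −0.39 within −0.63 to 1.47, the heavy chains of IIX and IIA fibres. Relative to the median of the other 7 arrays, fast genes were 1.74 higher by their median, slow and heart genes −0.29, and the remaining 15 members 1.54. Above that median lay 11 of 13 fast genes, 2 of 6 slow and heart genes and 15 of 15 remaining members. Of other lists, 21 of 43 further muscle fibre genes, 6 of 9 white adipocyte genes, 3 of 9 heart genes, 2 of 11 satellite cell genes and 0 of 12 endothelial genes had this array highest, and their part was not tested.

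In the aorta, 2 chow arrays from different strains, slides and scan sessions carried more signal of several fast genes: KO chow of experiment 1 and WT chow of experiment 3. They too were picked out after their values were seen. For 5 of 26 members these 2 were the highest of the 12 aorta arrays, where 1.35% of all probes had them so: Myh4, Tnnt3, Tnni2, Tnnc2 and Myoz1, which are 5 of the 10 fast genes tested and 0 of the 6 slow and heart genes. Tnni2 was 0.72 and 0.89 on these arrays and −6.46 to −2.24 on the other 10 (median −4.16). Tnnc2 was 1.82 and 1.06 against −4.44 to −1.78 (median −3.49). Neither overlapped, and both arrays still lay below the lowest muscle array, which was 2.24 for Tnni2 and 3.29 for Tnnc2. Other fast genes did not follow. On WT chow of experiment 3, Myh2 (−8.56, against −6.99 to −3.87) and Myh1 (−5.07, against −4.89 to −4.26) were the lowest of the 12, and Actn3 was below the median of the other 10 on both arrays, at −4.35 and −3.74. The mean of the fast genes was 2.11 and 0.96 above its average on these arrays, against −0.72 to 0.45 on the other 10, while the slow and heart genes were at 0.14 and −0.76, the second the lowest of all 12, against −0.53 to 0.87. Acta1 was −0.13 and 0.24, inside the range of the other 10 arrays (−1.30 to 0.71).

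White adipocyte genes also had these arrays highest for 5 of 10 genes, and KO chow of experiment 1 was the highest aorta array by its white adipocyte mean (2.67 above average, others up to 1.38), its brown adipocyte mean (2.00) and its red cell mean (2.19, others up to 0.58). Smooth muscle, heart, fibroblast and endothelial genes had them highest for 0 of 10, 0 of 10, 0 of 10 and 0 of 12 genes. Of the further muscle fibre genes, 0 of 31 had both arrays highest. The part of these cells in the fast gene signal was not tested.

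**Figure D4:**
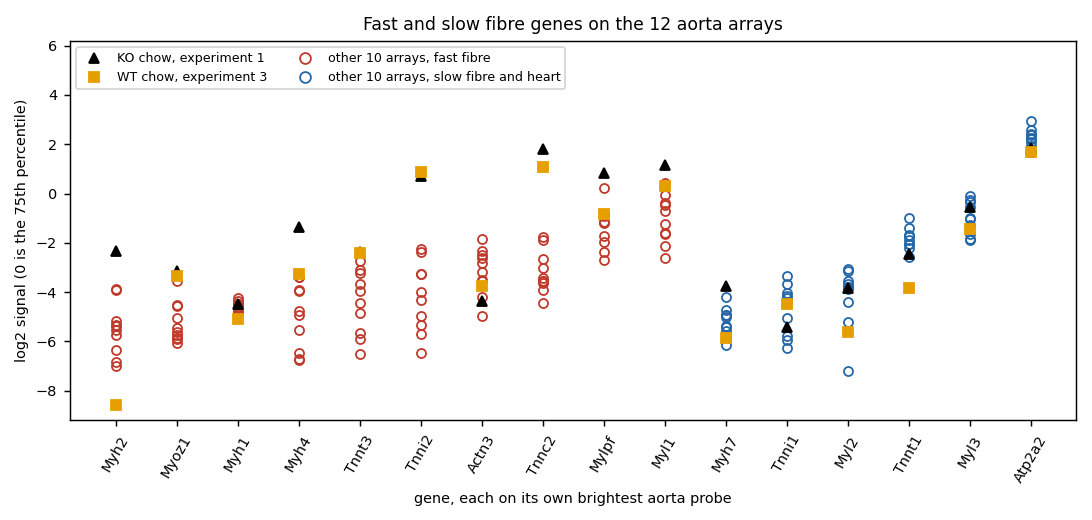
Log2 signal of the fast and the slow and heart genes on the 12 aorta arrays, each on its own brightest aorta probe, with KO chow of experiment 1 (triangles) and WT chow of experiment 3 (squares) marked. For Tnni2 and Tnnc2 the 2 marked arrays lie between 0.72 and 1.82, above all other arrays, and for Tnnt1 they lie at −2.47 and −3.84, the second the lowest of the 12.

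With HFD, no member passed the threshold in either tissue or strain, in the mean of the strains, or in how strains or tissues differed in their response (limma, 0 called). The muscle fit of the mean of the strains was also run on simulated data without shifts shared within an experiment. It called 0% of probes changed by 1 on the log2 scale, 35.5% of those changed by 2 and 92% by 4. The lack of calls therefore does not show that levels were unchanged. The simulated noise was scaled to the spread around group means, which holds the gap between experiments that the block takes up in the data. For members with that gap the shares recovered may therefore be too low. HFD and chow arrays were compared within strain and experiment. Counts at an unadjusted p under 0.05 follow.

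In muscle, for the mean of the strains, 12 of 34 members were positive and 22 negative (median −0.18), and 6 were higher and 1 lower at an unadjusted p under 0.05, where 7.28% and 9.1% of all probes were higher and lower. At an adjusted p under 0.05 the shares of all probes were 0.167% and 0.121%. Only Myh2 and Myh1 went the same way in all 6 pairs, and the share of all probes that did so was not counted. Myh2 was 2.21, −0.09 and −0.63 in WT chow of experiments 1 to 3 and 2.87, 1.06 and 0.56 in WT HFD. It was 1.86, −0.14 and −0.39 in KO chow and 3.11, 1.47 and −0.29 in KO HFD. Groups overlapped, but each HFD array was above its chow partner, by 0.10 to 1.61. The mean difference was 0.99 ± 0.23 (SE; limma unadjusted p = 0.0035, adjusted p = 0.132). Myh1 was 0.46, −1.04 and −1.57 in WT chow, 1.36, −0.99 and −1.0 in WT HFD, 0.70, −1.84 and −1.54 in KO chow and 1.67, −0.65 and −1.22 in KO HFD. Its difference was 0.67 ± 0.19 (limma adjusted p = 0.181), and it too was higher on HFD in 6 of 6 pairs. Myh4 differed by −0.41 ± 0.37 and went up in 3 pairs and down in 3. Of the slow genes, Tnnt1 differed by 0.64 ± 0.21 (limma adjusted p = 0.218) and Myl2 by 0.59 ± 0.22 (limma adjusted p = 0.256), both higher in 5 of 6 pairs. Ttn was the member at the low end of the unadjusted calls, −0.77 ± 0.28 (limma adjusted p = 0.254), lower in 4 of 6 pairs.

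Taken by class, the median change in muscle was −0.41 in the 13 fast genes (2 positive, 11 negative) and 0.62 in the 6 slow and heart genes (5 positive, 1 negative). The fast value turned on KO chow of experiment 3. Without that array it was 0.06, with 7 positive and 6 negative, and the slow value was 0.58, with 6 of 7 positive. Over all members the median went from −0.18 to 0.24. In KO alone the fast median was −0.55 with it and 0.44 without it, 11 of 13 negative against 12 of 13 positive. In WT, where that array plays no part, it was −0.25 for fast and 0.68 for slow and heart genes. Fibroblast markers were positive in muscle for 10 of 10 genes, with 8 of 10 higher at an unadjusted p under 0.05 (median 0.98), macrophage and leukocyte genes had a median of 1.77 over 6 genes and endothelial genes of −0.02 over 12, and their part was not tested.

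**Figure D5:**
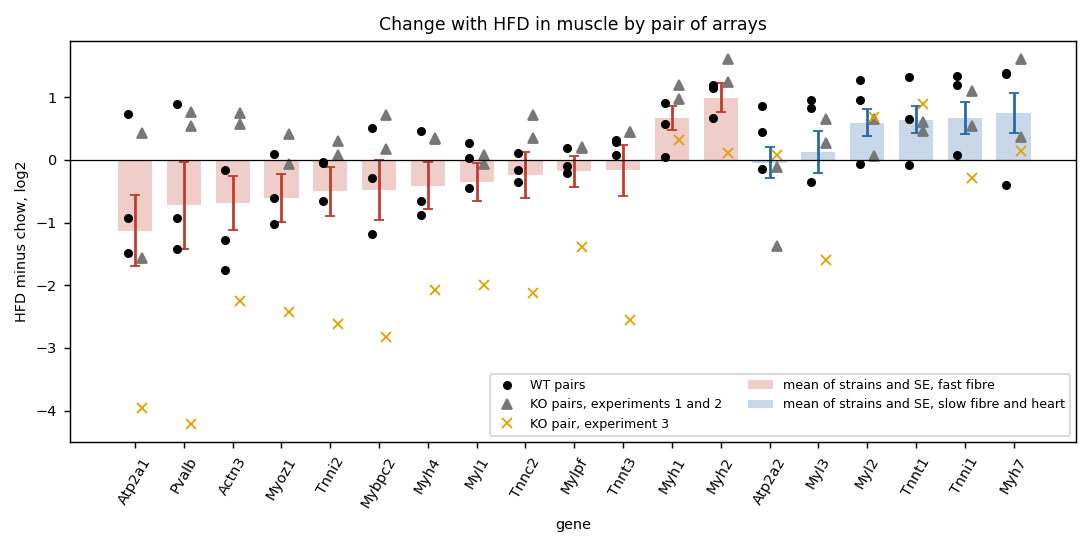
HFD minus chow in muscle for the fast and the slow and heart genes, as log2 difference, with bars for the mean of the strains, lines for its standard error and a symbol for each pair of arrays. Myh1 and Myh2 are the only genes with all 6 pairs above 0, and the KO pair of experiment 3 (crosses) is the lowest of the 6 for each of the 13 fast genes except Myh1.

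In the aorta, 13 of 26 members were positive and 13 negative for the mean of the strains (median 0.02), and 2 were higher and 5 lower at an unadjusted p under 0.05, where 8.45% and 6.68% of all probes were. At an adjusted p under 0.05 these shares were 0.00773% and 0.0232%. Myh4 and Mylpf were lower on HFD, and Tnni1 and Atp2a2 higher, in 6 of 6 pairs. The share of all probes that went the same way in all 6 pairs was not counted. Myh4, here on the probe brightest in aorta, was −6.71, −3.89 and −3.25 in WT chow, −6.76, −6.49 and −4.93 in WT HFD, −1.34, −3.38 and −3.37 in KO chow and −5.52, −3.95 and −4.77 in KO HFD. The WT groups overlapped and the KO groups did not, and the difference was −1.75 ± 0.54 (limma adjusted p = 0.246). Both Myh4 values of the WT pair of experiment 1 lay below the dimmest signal well above background on their array. So did the value of WT HFD of experiment 2. These values are bounds, and the sign of the WT pair of experiment 1 was not measured. Mylpf was −1.74, 0.23 and −0.84 in WT chow, −2.35, −1.98 and −1.17 in WT HFD, 0.82, −0.83 and −0.89 in KO chow and −2.70, −1.17 and −1.19 in KO HFD, a difference of −1.22 ± 0.50 (limma adjusted p = 0.321) that was −0.69 without KO chow of experiment 1. Leaving out KO chow of experiment 1, the array with high fast genes, moved the fast median from −0.73 to −0.24, and leaving out WT chow of experiment 3 moved it to −0.39. In KO alone it went from −0.17 to 0.27 without KO chow of experiment 1, and in WT alone from −0.81 to −0.28 without WT chow of experiment 3.

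Tnni1, the slow inhibitory troponin, was −4.04, −6.26 and −4.49 in WT chow, −3.66, −4.42 and −4.25 in WT HFD, −5.43, −5.78 and −5.93 in KO chow and −5.05, −3.35 and −4.15 in KO HFD. Only the KO groups were apart, and the difference was 1.18 ± 0.35 (limma adjusted p = 0.237) and 0.70 without experiment 2. Atp2a2, named after its values were seen, was 2.07, 1.70 and 1.69 in WT chow, 2.26, 2.43 and 2.21 in WT HFD, 1.84, 1.67 and 1.92 in KO chow and 2.38, 2.93 and 2.59 in KO HFD. Neither strain overlapped between diets, and the difference was 0.65 ± 0.19 (limma adjusted p = 0.237). White adipocyte genes had a median of −3.37 in aorta with HFD, with 1 of 10 called lower, and endothelial genes −0.65, and their part was not tested.

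The study's methods counted a gene when HFD and chow differed by more than 1 on the log2 scale, with 1 sign, in each of the 3 experiments. By that rule 1 member was counted, Tmod4 in aorta of WT, where 1.6% of all probes were. In aorta of KO (2.96%), muscle of WT (1.83%) and muscle of KO (0.994%) 0 members did. Tmod4, also named after its values were seen, was −3.89, −3.28 and −4.90 in WT chow and −7.84, −7.00 and −8.51 in WT HFD, where it was well above background on 3 of 3 and 0 of 3 arrays. The groups did not overlap, and with HFD set at the lowest measurable signal Tmod4 was at least 4.79-fold lower on HFD (limma adjusted p = 0.198 for WT). In KO it was −5.02, −6.34 and −7.10 on chow and −5.59, −7.53 and −5.78 on HFD, above background on 1 of 3 arrays in each, so that the responses of the strains could not be compared in size. Before adjustment, the methods' t-test on the ratios passed 1 member in aorta of WT (4.73% of all probes), 1 in aorta of KO (6.77%), 2 in muscle of WT (8.28%) and 1 in muscle of KO (5.04%), and 0 after Benjamini-Hochberg adjustment.

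Between the strains, no member passed the threshold on either diet in either tissue (limma, 0 called). On chow in aorta 17 of 26 members were positive in arrays labelled KO (median 0.30) and 1 was lower at an unadjusted p under 0.05, Tmod4, with a difference of −2.13 ± 0.69 (limma adjusted p = 0.818) and signal well above background on 1 of 3 KO arrays. Over all probes 4.41% passed in either direction. The median was −0.05 without KO chow of experiment 1. On HFD in aorta 22 of 26 were positive (median 0.39), with 0 at an unadjusted p under 0.05 (1.15% of all probes). In muscle 28 of 34 were positive on chow (median 0.33) and 15 of 34 on HFD (median −0.10), again with 0 at an unadjusted p under 0.05 on either (2.42% and 3.15% of all probes). The chow median was −0.20 without experiment 3. These fits had no term for the experiment. With a block by slide, which takes up the gap between experiments, limma again called 0 members, and 1 of 26 on chow in aorta, 0 of 26 on HFD in aorta, 1 of 34 on chow in muscle and 1 of 34 on HFD in muscle passed at an unadjusted p under 0.05. Of all 25865 probes in aorta, 827 were higher and 732 lower in this way on chow, and 206 and 246 on HFD. Of all 25682 in muscle, 609 were higher and 553 lower on chow, and 753 and 645 on HFD.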

How the data were processed

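RNA of sorted endothelial cells was measured on 24 one-colour Agilent Whole Mouse Genome arrays, 3 for each of 8 groups of tissue, strain and diet taken from the labels. The authors amplified the RNA, labelled it with Cy3 and extracted the scans with Agilent Feature Extraction (version 9.1 in the submitters' processing notes, 10.5.1.1 in the file headers). The deposited processed signal is a background-subtracted intensity for each spot, not scaled between arrays. A table of log2 values deposited beside the scans served as an alternative. For each array it equals the log2 processed signal plus a constant that differs between aorta and muscle. The pools are given as 3 mice in the paper and as a range in the deposited design.

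Here the log2 of the processed signal minus that of the 75th percentile of the array was taken, outlier spots were left out, and spots of a probe were averaged (41174 probes). Several spots of a probe counted as well above background where 0.5 or more of them had Agilent's mark for it. Accessions were matched to gene symbols of the RefSeq gene table, which named 27190 probes. Tests took the probes with that mark on all 3 arrays of any 1 group, which were 25865 for aorta, 25682 for muscle and 27387 with both. Tests used limma 3.58.1 in R 4.3.3 with Benjamini-Hochberg adjustment over all probes tested and a threshold of 0.05, and the fitting code was tested on simulated data. HFD was compared with chow in 1 fit per tissue with a block for each strain and experiment, as the study formed ratios within experiments. Tissues and strains were compared on group means. The pairing rests on the experiment number in the labels: deviations from the group mean correlated at 0.01 to 0.46 (median 0.23) over the 12 pairs of an HFD array with its chow partner, above 0.1 in 7, and at 0.06 to 0.62 (median 0.33) between the strains, above 0.1 in 11. The paper's description reads as aorta and muscle taken from the same mice in each experiment, and the main fit of the tissues did not use this pairing. A block by pool was an alternative. Between the aorta and muscle arrays of a pool, these deviations correlated at 0.07 to 0.40 (median 0.22), above 0.1 in 9 of 12. Pools within a group came from separate experiments.

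The members, the lists of other cell types and the comparisons were chosen with earlier results of these data known. Values on every array are given for the member of each role with the largest tissue difference, for up to 3 members per tissue that went the same way with HFD in all 6 pairs, and for Acta1, Ckm, Myh4, Myh7, Myl2 and Tnnt1. Alternatives were other background correction (normexp with an offset of 50) and normalization, the deposited log2 table, other filters, the mean of all probes of a gene, other blocks, the methods' t-test on the ratios, and leaving out each experiment. Leaving out 3 arrays in turn and repeating the counts of array order under other scalings were added after seeing the data. The number of arrays limits the precision. Probe sequences were not used here, so that shared signal between near-identical genes, such as the myosin heavy chains, was not examined.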

Additional observations from a re-analysis of the deposited data

Results flagged for a closer look

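The HFD pairs of Neb, the thin filament ruler, had opposite signs in the muscle of the 2 strains. All 3 WT pairs were positive, between 0.67 and 1.76 (mean 1.40), and all 3 KO pairs were negative, between −0.51 and −0.04 (mean −0.28). The difference between the responses, KO minus WT, was −1.68 ± 0.40 (SE; limma unadjusted p = 0.0042, adjusted p = 0.999), and it did not pass the threshold. The KO pairs came as near to no change as −0.04, so that opposite signs do not show opposite responses. On the single arrays Neb was −1.27, −2.99 and −3.07 in WT chow, −0.60, −1.24 and −1.31 in WT HFD, −0.79, −2.82 and −2.07 in KO chow and −0.82, −3.32 and −2.37 in KO HFD.

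For Myot the pairs of WT were all negative in aorta, between −1.72 and −0.25 (mean −1.12), and all positive in muscle, between 0.39 and 1.22 (mean 0.92), a difference of −2.04 that was not itself tested. In WT it was well above background on 0 of 6 aorta arrays, so that the aorta values have only a bound. The opposite signs therefore do not show opposite responses.

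The HFD pairs of Myl2 had opposite signs in the 2 tissues of KO. The 3 aorta pairs lay between −1.33 and −0.51 (mean −0.80) and the 3 muscle pairs between 0.06 and 0.69 (mean 0.47), a difference of −1.26 that was not itself tested. Over both strains the difference between the tissues' responses was −1.34 ± 0.36 (SE; limma unadjusted p = 0.0039, adjusted p = 0.292). These 3 genes were picked from all members because every pair of a group had the same sign, and none of the differences passed the threshold.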

How the results depend on the processing

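The tissues differed for 32 to 34 members in 13 of 14 alternatives, with medians of 3.50 to 4.73 when 1 experiment was left out. Of the 34 with the deposited table, 33 were higher in muscle and 1, Atp2a2, lower, where 4129 and 5927 of all 27387 probes were. With probes kept only where they were well above background on every array, 14 members were tested and 13 were higher, since fewer members entered. Of all 19643 probes kept in this way, 6774 were higher. With a replicate block by pool, or a random slide block, 33 were higher, where 10750 and 4574 of all 27387 probes were. The diet comparisons gave 0 members without the replicate block and with a block by slide, and no call changed with any block. By the methods' t-test without adjustment, 1 member passed in aorta of WT (4.73% of all probes), 1 in aorta of KO (6.77%), 2 in muscle of WT (8.28%) and 1 in muscle of KO (5.04%), and 0 after Benjamini-Hochberg adjustment. The median difference between the strains' responses in aorta was 0.20, and leaving out an experiment gave −0.12 to 0.86, the highest without experiment 1; the cause was not tested. In muscle it was −0.48, from −1.11 to 0.24 when an experiment was left out, and 0.21 without KO chow of experiment 3. Leaving out an experiment gave medians of the change with HFD over all members from −0.22 to 0.21 in aorta and from −0.44 to 0.28 in muscle, the latter positive only without experiment 3. Medians of diet and strain that follow single arrays are given with their results. Under quantile normalization, normexp and the deposited table, the array order counts in muscle were 24 to 25 for experiment 1 and 22 to 23 for KO chow of experiment 3, and in aorta 5. All 12 muscle arrays exceeded all 12 aorta arrays for 19 to 23 members. The exact permutation test planned for single values cannot reach the threshold with 3 arrays a group and was not run. Members near or below background, mostly in aorta, have levels that are bounds.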

Other observations

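In the aorta, genes of heart muscle varied between arrays without following the fast genes of skeletal muscle. The mean of 10 heart muscle genes was highest on KO HFD of experiment 2, at 1.55 above its average, and lowest on WT chow of experiment 3, at −1.18, which was the array with the second highest mean of fast genes. On KO chow of experiment 1 it was 0.02. The slow and heart members of the present genes were also highest on KO HFD of experiment 2, at 0.87.

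The mean of satellite cell and myoblast genes in muscle was 0.92 to 1.57 above average in experiment 1 and −1.46 to 0.30 elsewhere, and KO chow of experiment 3 was at 0.18, below WT chow of experiment 2 at 0.30. For Myh8, the perinatal myosin heavy chain in that list, KO chow of experiment 3 was the highest of the 8 arrays of experiments 2 and 3, and KO chow of experiment 1 and WT chow of experiment 3 were the highest aorta arrays.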
